A study of Rattus norvegicus with 46 samples.

Results

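The mitochondrial carrier family Slc25 was followed across fatty acid treatment of rat heart muscle cells. Its members here were the 19 probes, of 22517 on the array, whose symbol in the deposited table, without an added suffix, began with Slc25a, with the carnitine-acylcarnitine carrier Slc25a20 set aside by the same rule. They stood for 19 genes, of 21717 distinct gene names on the array, with 1 probe each. Adult cardiomyocytes of wild-type male Wistar rats were exposed for 24 h to 0.4 mM octanoate (8 arrays), palmitate (8), stearate (8), oleate (8) or linoleate (7), each conjugated to bovine serum albumin (BSA) at 1%, or to 1% BSA alone as control (7). Before treatment the cells were kept overnight on laminin-coated plates without serum, which all 6 groups shared. The labels did not say whether replicates came from separate animals or cultures, so the p-values measured no more than the spread among these arrays, part of which may be technical.

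Slc25 carriers are nuclear-encoded proteins that sit in the inner membrane of mitochondria, with a few in peroxisomes, and exchange nucleotides, phosphate, organic acids, amino acids and cofactors between the matrix and the cytosol. In the heart the adenine nucleotide and phosphate carriers supply the ATP synthase and release its product, and the malate-aspartate shuttle, which moves reducing equivalents from glycolysis into the matrix, depends on the oxoglutarate and aspartate-glutamate carriers. Citrate that leaves the matrix through the citrate carrier can be turned into malonyl-CoA, which inhibits the entry of long-chain acyl groups for oxidation.

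Across the 46 arrays, 3090 to 7886 probes were detected above the negative controls (detection p-value under 0.01) and the median signal ran between 135 and 230 intensity units. The signal range of an array, its 95th percentile of signal divided by its median, was 4.79 to 16.1 under stearate, with a median of 8.08, against 11.1 to 16.2 under control, with a median of 13.7. Arrays 5 to 8 of stearate detected the fewest probes of their group. Of 9 cardiomyocyte markers, 8 were detected in at least 4 arrays of each group, while the 3 endothelial and 3 adipocyte markers on the array reached that in no group. Of 6 fibroblast markers, 2 or 3 reached it in each group. Of 5 smooth muscle and pericyte markers, 0 reached it under stearate and 1 in each other group. Of 4 macrophage and leukocyte markers, 1 reached it under octanoate, palmitate and oleate and 0 in the other groups. In such bulk samples, fewer cells of a type and less RNA per cell cannot be told apart.

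Levels below are normalized log2 intensities, which can be compared between groups for 1 probe but not between probes. A member entered the test where its probe was detected in at least 7 arrays and was the brightest probe of its gene, as held for 12 members. Slc25a2, Slc25a10 and Slc25a14 were detected in 0 of 46 arrays, Slc25a24 in 3, Slc25a21 in 5 and Slc25a26 in 6. So these members were not well above background in most arrays and did not enter the test. They carry ornithine (Slc25a2), dicarboxylates (Slc25a10), oxodicarboxylates (Slc25a21), ATP-magnesium and phosphate (Slc25a24) and S-adenosylmethionine (Slc25a26), and Slc25a14 is related to the uncoupling proteins. In an alternative fit without the detection filter, Slc25a24 (0.56, adjusted p = 0.0173) and Slc25a14 (0.23, adjusted p = 0.0320) passed under octanoate against control. Of the octanoate arrays, 1 of 8 had detection of Slc25a24 and 0 of 8 that of Slc25a14. Slc25a30, detected in 13 arrays, had a second and brighter probe under another symbol, so its own probe was tested only in a fit of every detected probe. At the other end, Slc25a3 and Slc25a4 were detected in all 46 arrays, Slc25a11 in 45, Slc25a5 in 44, Slc25a1 and Slc25a27 in 41 and Slc25a16 in 39. Slc25a25 was detected in 32 arrays, Slc25a17 in 29, Slc25a15 in 24, Slc25a29 in 22 and Slc25a12 in 17, and for these the number of arrays with detection is given beside the levels of those that changed.

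**Figure D1:**
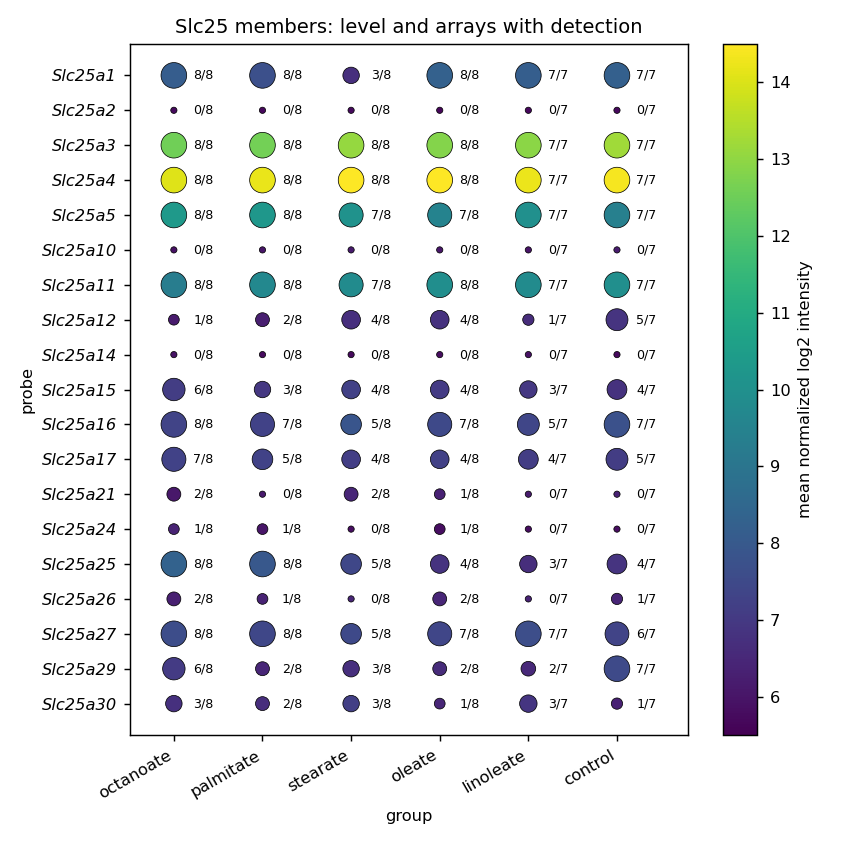
Mean normalized log2 intensity (colour) and arrays with detection (circle size and printed count) of each of the 19 Slc25 probes in the 6 groups. Slc25a1 was detected in 3 of 8 stearate arrays and Slc25a29 in 7 of 7 control arrays, while 3 probes were detected in no array.

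Of the 12 members tested, 4 passed the joint test of all 5 fatty acids (limma F test, Benjamini-Hochberg adjusted over 7182 genes), beside 28.8% of all genes tested. These were the citrate carrier Slc25a1 (adjusted p = 1.02e-05), the ATP-magnesium/phosphate carrier Slc25a25 (adjusted p = 9.47e-05), the basic amino acid carrier Slc25a29 (adjusted p = 2.90e-04) and the adenine nucleotide carrier Slc25a4 (adjusted p = 0.0335). Slc25a1, Slc25a25 and Slc25a29 each had a different pattern over the fatty acids. Slc25a1 fell under stearate, Slc25a25 rose under octanoate and palmitate, and Slc25a29 fell under palmitate, stearate, oleate and linoleate.

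The promoters of those 3 members are shown because they had the smallest adjusted p-values of the F test among the 12 members. Each window runs from 250 bases before to 50 after the gene start, 5′ to 3′ on the strand of the gene, with sequence from RefSeq on the rat build GRCr8. Capitals mark matches on either strand to the GC box (GGGCGG), the CCAAT box (CCAAT) and the cyclic AMP response element (TGACGTCA).

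Slc25a1, chr11:96559804-96560103, plus strand: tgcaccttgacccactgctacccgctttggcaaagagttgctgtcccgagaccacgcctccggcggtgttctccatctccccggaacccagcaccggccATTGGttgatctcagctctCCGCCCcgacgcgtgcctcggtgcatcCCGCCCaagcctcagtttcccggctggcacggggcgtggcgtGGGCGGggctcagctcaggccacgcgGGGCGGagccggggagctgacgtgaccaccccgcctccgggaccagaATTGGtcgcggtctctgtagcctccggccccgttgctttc
Slc25a25, chr3:36116532-36116831, minus strand: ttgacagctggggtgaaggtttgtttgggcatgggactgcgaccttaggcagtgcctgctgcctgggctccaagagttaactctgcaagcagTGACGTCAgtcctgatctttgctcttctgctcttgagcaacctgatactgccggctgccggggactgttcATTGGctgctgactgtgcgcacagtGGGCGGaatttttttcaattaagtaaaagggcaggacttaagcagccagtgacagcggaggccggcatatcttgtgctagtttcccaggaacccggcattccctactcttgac
Slc25a29, chr6:133517148-133517447, minus strand: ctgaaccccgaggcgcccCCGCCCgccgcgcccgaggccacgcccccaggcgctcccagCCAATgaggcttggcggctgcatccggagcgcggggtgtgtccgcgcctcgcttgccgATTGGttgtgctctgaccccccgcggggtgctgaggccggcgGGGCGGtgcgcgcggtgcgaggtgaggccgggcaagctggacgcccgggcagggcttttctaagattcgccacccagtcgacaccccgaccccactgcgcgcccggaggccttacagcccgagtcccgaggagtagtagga

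The Slc25a1 window held 4 GC boxes and 2 CCAAT boxes, and that of Slc25a29 held 2 of each. That of Slc25a25 held 1 GC box, 1 CCAAT box and 1 cyclic AMP response element, whose first base lay 158 bases before the gene start. The promoter table held 17 of the 19 members, all but Slc25a26 and Slc25a30. Of these 17, 13 held a GC box and 11 a CCAAT box, against 34.9% and 37.7% of 27457 rat promoter windows of the same length. The cyclic AMP response element was found in 1 member and in 1.91% of all windows, and the E-box (CACGTG) in 1 member, Slc25a2, and 6.65% of all windows. The core of the sterol response element (TCACNCCAC) was found in 1 member, Slc25a24, and 1.13% of all windows. Searches on both strands found 0 matches among the members for the full sterol response element (0.102% of all windows), the amino acid response element (TGATGNAAT, 1.05%), a direct repeat bound by PPAR receptors (0.0583%), the element of estrogen-related receptors (TCAAGGTCA, 0.412%) and that of NRF1 (0.932%). The core of the sterol response element lies inside the full one.

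Among the nucleotide and phosphate carriers, Slc25a25 (SCaMC-2), a calcium-regulated carrier that exchanges ATP-magnesium for phosphate and so sets the adenine nucleotide pool of the matrix, was higher with both shorter saturated fatty acids. Its log2 level was lowest at 7.78, 8.21 at the median and highest at 9.24 in the octanoate arrays, and 7.44, 7.93 and 8.49 in the palmitate arrays, against 6.39, 6.80 and 7.38 in the control arrays. The probe was detected in 8 of 8 octanoate and 8 of 8 palmitate arrays, against 4 of 7 control arrays. Every octanoate and every palmitate array lay above the highest control array, so that neither group overlapped the control.

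The octanoate mean was 2.72-fold that of control (log2 change 1.45 ± 0.32, SE, adjusted p = 7.2e-04), and the palmitate mean 2.16-fold (1.11 ± 0.32, adjusted p = 0.0184). These sizes depend on the background correction, since without it the log2 changes were 0.79 and 0.58, and the second deposited table gave 0.85 and 0.62, all still past the threshold. Between palmitate and octanoate the difference did not pass the test (-0.33, 95% interval -0.96 to 0.29, adjusted p = 0.815). The stearate arrays were the most spread, at 5.84, 7.54 and 8.58 with detection in 5 of 8. Of these, 4 lay above the highest control array and 1 below the lowest, and stearate did not differ from control by the test (0.58, 95% interval -0.07 to 1.23, adjusted p = 0.241), but passed with signal range as a covariate (0.90, adjusted p = 0.0390). Levels were 6.14, 6.62 and 8.07 under oleate and 5.82, 6.49 and 7.79 under linoleate, and both groups overlapped the control. The palmitate change was 0.997 on the log2 scale under median scaling, with an adjusted p of 0.137, whereas that of octanoate passed under each of the 10 alternatives run. The macrophage marker Cd68 was also higher under octanoate (1.22 ± 0.22, adjusted p = 7.38e-05) and palmitate (0.70 ± 0.22, adjusted p = 0.0328). The other of the 2 macrophage and leukocyte markers tested went the other way, at -0.07 and -0.35 in that order, and was not called. The summed raw intensity of the 4 macrophage and leukocyte markers, not normalized between arrays, was 635 to 1154 under octanoate (median 784). It was 603 to 1100 under palmitate (median 675), against 631 to 923 under control (median 777). Of 8 cardiomyocyte markers tested, 3 fell under octanoate and 1 under palmitate, with values given below, and 0 rose. The part of all these markers in the Slc25a25 result was not tested.

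The other nucleotide and phosphate carriers that entered the test did not pass in any single comparison with control without a block or covariate. Slc25a4 (ANT1), the adenine nucleotide carrier typical of heart and skeletal muscle, passed the F test alone, with changes between -0.31 ± 0.14 under octanoate (adjusted p = 0.107) and 0.19 ± 0.14 under stearate (adjusted p = 0.430). Median scaling gave -0.24 under stearate (adjusted p = 0.588), where the median change of all genes with that scaling was -0.49. Its levels were 13.66, 14.08 and 14.49 (lowest, median, highest) under octanoate, 13.77, 14.18 and 14.60 under palmitate, 14.24, 14.49 and 15.22 under stearate, 13.90, 14.47 and 15.001 under oleate and 13.87, 14.23 and 14.65 under linoleate, against 14.23, 14.41 and 14.46 under control. The control arrays lay within a narrow band, with 6 of 8 octanoate arrays below it and 4 of 8 stearate arrays above it. In the stearate against palmitate comparison Slc25a4 did not pass without the replicate number as a block (0.36 ± 0.14, adjusted p = 0.136) and passed with it (adjusted p = 0.0463).

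Slc25a5 (ANT2), the adenine nucleotide carrier found in many tissues and in dividing cells, had the widest spread among arrays of the 12 members tested, 9.10, 10.39 and 11.71 under octanoate against 8.45, 8.92 and 11.05 under control. Its change under octanoate of 0.93 ± 0.52 had an adjusted p of 0.201, and a 95% interval of -0.13 to 1.98. It passed with the replicate number as a block under octanoate (1.12, adjusted p = 0.0134) and palmitate (1.06, adjusted p = 0.0285), although the numbers do not pair these arrays with control by the criterion used. With signal range as a covariate it passed under octanoate (1.40, adjusted p = 0.00549), palmitate (1.37, adjusted p = 0.0126) and stearate (1.61, adjusted p = 0.00668). Slc25a3, the phosphate carrier, ranged from 11.41 to 13.83 under octanoate and from 12.19 to 13.91 under control, with no change past the test in any comparison. The coding sequences of the adenine nucleotide carriers are much alike, and whether the probe of one also binds its relatives was not tested. Slc25a17, a peroxisomal carrier of CoA, FAD and NAD, was detected in 4 to 7 arrays of each group and its changes against control lay between -0.01 and 0.20, all short of the threshold.

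**Figure D2:**
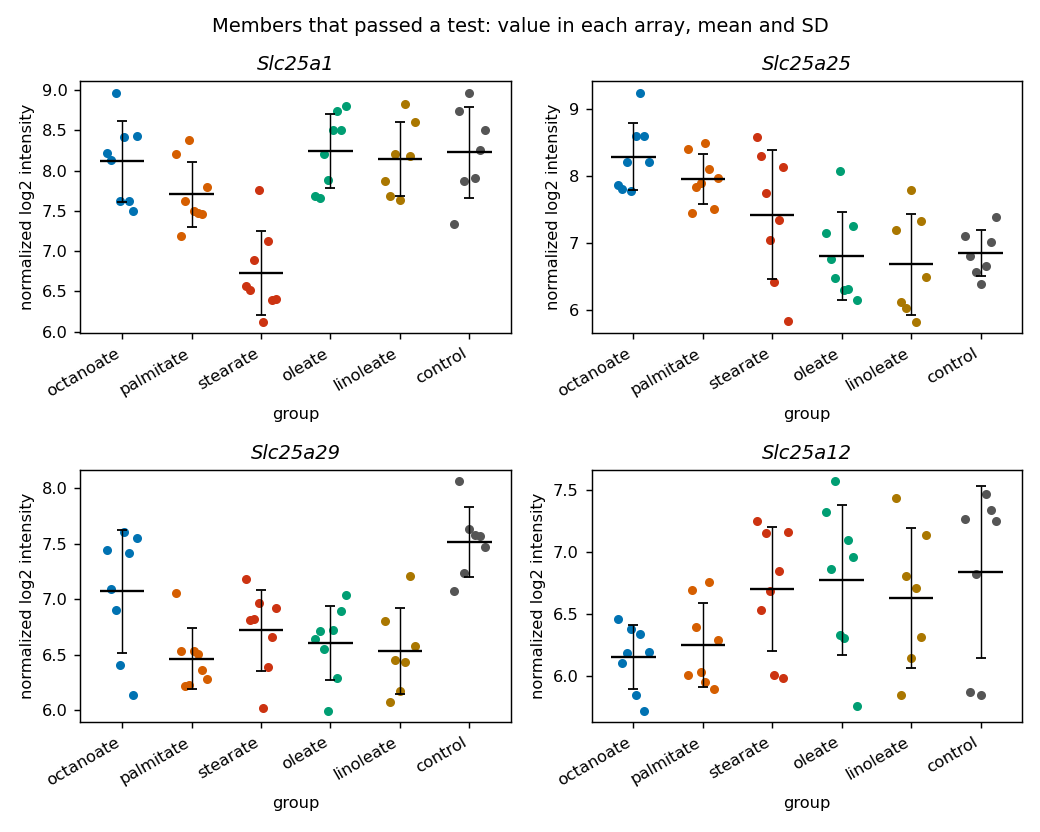
Normalized log2 intensity in each array (points) with group mean and SD (lines) for the 4 members called in a comparison with control: Slc25a1, Slc25a25, Slc25a29 and Slc25a12. Slc25a1 was low under stearate, Slc25a25 was high under octanoate and palmitate, and the control arrays of Slc25a29 lay above all palmitate and oleate arrays.

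Among the di- and tricarboxylate carriers, Slc25a1, which exports citrate from the matrix in exchange for malate, was lower under stearate than under every group it was tested against. The stearate arrays lay at 6.12, 6.55 and 7.77 (lowest, median, highest), against 7.34, 8.26 and 8.97 in the control arrays. Detection was reached in 3 of 8 stearate arrays, against 7 of 7 control arrays and all arrays of the other 4 fatty acids. The other fatty acids lay at 7.50, 8.18 and 8.96 under octanoate, 7.19, 7.56 and 8.38 under palmitate, 7.66, 8.36 and 8.80 under oleate and 7.63, 8.18 and 8.83 under linoleate. So the level under stearate lay close to background in 5 of 8 arrays, which limits the folds. Of the 8 stearate arrays 7 lay below the lowest control array, and the single stearate array inside the control range was array 4. In that array Pdk4, a gene outside the family, was at 7.48 too, against 11.18 to 12.91 in the other stearate arrays and 6.21 to 8.16 under control. The reason was not tested.

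The fall of Slc25a1 under stearate was 2.83-fold against control (-1.50 ± 0.25, adjusted p = 6.55e-05) and 1.97-fold against palmitate (-0.98 ± 0.24, adjusted p = 0.0137). Its level under oleate was 2.87-fold that under stearate (1.52 ± 0.24, adjusted p = 3.48e-05). The change against control and the difference between oleate and stearate passed under each of 11 alternatives, among them the fit without stearate arrays 5 to 8 (-1.29, adjusted p = 0.0117, and 1.31, adjusted p = 0.00986). Without those 4 arrays the difference between stearate and palmitate was -0.77, with an adjusted p of 0.188. Without background correction the stearate change was -0.81 against control and -0.49 against palmitate, and oleate against stearate was 0.82. With the second deposited table these were -0.87, -0.53 and 0.88, and all 6 values passed. Under palmitate the change against control was -0.52 ± 0.25 (adjusted p = 0.181), and under octanoate, oleate and linoleate it lay between -0.11 and 0.02. Markers of cell types moved in the same comparisons. The pericyte marker Cspg4 was also lower under stearate (-2.12 ± 0.32, adjusted p = 8.76e-06), as was the fibroblast marker Dcn (-1.14 ± 0.39, adjusted p = 0.0461). The summed raw intensity of the 5 smooth muscle and pericyte markers was 659 to 1514 under stearate against 984 to 2284 under control. That of the 6 fibroblast markers was 1127 to 8154 against 2791 to 10890. These sums were not normalized between arrays or corrected for the lower signal range under stearate. Most of these markers were not detected in at least 4 arrays of either group. In stearate against palmitate Cspg4 (-1.10 ± 0.31, adjusted p = 0.0319) and the macrophage marker Cd68 (-0.95 ± 0.21, adjusted p = 0.00629) were lower and the cardiomyocyte marker Myl2 was higher (1.45 ± 0.30, adjusted p = 0.00279). In oleate against stearate Cspg4 was higher (1.80 ± 0.31, adjusted p = 1.05e-04), and 3 of 8 cardiomyocyte markers tested were lower, Myl2 (-1.40 ± 0.30, adjusted p = 0.00178), Tnni3 (-0.40 ± 0.10, adjusted p = 0.00935) and Tnnc1 (-0.49 ± 0.13, adjusted p = 0.0107). The part of these markers in the Slc25a1 results was not tested.

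Slc25a11, the oxoglutarate-malate carrier of the malate-aspartate shuttle, was detected in 45 arrays and did not pass in any comparison. Its arrays ran from 7.57 to 10.31 under octanoate, with a change of -0.67 ± 0.46 (adjusted p = 0.304), against 8.36 to 10.77 under control. The 95% interval of that change, -1.59 to 0.25, was among the wide ones of the family.

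Among the amino acid carriers, Slc25a29, which carries arginine, lysine and other basic amino acids into mitochondria and was earlier described as a palmitoylcarnitine transporter, was lower with every long-chain fatty acid. The palmitate arrays lay at 6.22, 6.44 and 7.06 (lowest, median, highest), the stearate arrays at 6.02, 6.82 and 7.18, the oleate arrays at 5.998, 6.68 and 7.04 and the linoleate arrays at 6.07, 6.45 and 7.21. The control arrays lay higher, at 7.08, 7.56 and 8.06. All palmitate and all oleate arrays, 7 of 8 stearate arrays and 6 of 7 linoleate arrays lay below the lowest control array. Detection was reached in 2 of 8 palmitate, 3 of 8 stearate, 2 of 8 oleate and 2 of 7 linoleate arrays, against 7 of 7 control arrays, so the low levels lay close to background, which limits their folds.

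The fall of Slc25a29 was 2.07-fold under palmitate (-1.05 ± 0.20, adjusted p = 3.75e-04), 1.74-fold under stearate (-0.80 ± 0.20, adjusted p = 0.00606), 1.88-fold under oleate (-0.91 ± 0.20, adjusted p = 0.0110) and 1.98-fold under linoleate (-0.98 ± 0.21, adjusted p = 0.00821). These 4 values share the control arrays. Without background correction they were -0.51, -0.39, -0.45 and -0.48 in the same order, and with the second deposited table -0.55, -0.43, -0.48 and -0.52, all past the threshold. Slc25a29 was 1 of 4 genes called lower under oleate (0.0557% of those tested) and 1 of 10 under linoleate (0.139%). The octanoate arrays were spread over 6.13, 7.25 and 7.61, with detection in 6 of 8, and overlapped the control. Their change of -0.45 ± 0.20 did not pass (adjusted p = 0.0999). Palmitate and octanoate differed by -0.60 (95% interval -0.996 to -0.21), which had an adjusted p of 0.0940 without the replicate number as a block and 0.0476 with it. Under palmitate the pericyte marker Cspg4 (-1.02 ± 0.32, adjusted p = 0.0307) and the cardiomyocyte marker Myl2 (-0.98 ± 0.31, adjusted p = 0.0329) were also lower and Cd68 was higher, as given above, and under stearate Cspg4 and Dcn were lower. Their part in the Slc25a29 falls was not tested. No cell type marker on the lists passed the test under oleate or linoleate against control.

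The palmitate fall passed under each of 10 alternatives. That of oleate had an adjusted p of 0.0517 without control replicate 2, of 0.117 under median scaling, and was also lost without the arrays numbered 4 of every group (0.0638). That of linoleate was lost under median scaling (0.107), with only the groups compared (0.0550) and without the arrays numbered 4 and 7 (0.0749), a setting that also ended the oleate call (0.0724). That of stearate was -0.57 without stearate arrays 5 to 8 (adjusted p = 0.171).

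Slc25a12 (aralar), the calcium-regulated aspartate-glutamate carrier of the malate-aspartate shuttle, fell under octanoate by 0.68 ± 0.26 on the log2 scale (adjusted p = 0.0461). Its octanoate arrays lay at 5.72, 6.19 and 6.46, against 5.85, 7.25 and 7.46 in the control arrays, with detection in 1 of 8 and 5 of 7. All 8 octanoate arrays lay below the control median and 2 below the lowest control array, and 2 control arrays were as low as the octanoate ones. The call was lost in 11 of 15 fits that left out 1 array, with adjusted p-values of 0.0146 to 0.115 over the 15, and under 7 of 10 other alternatives. Palmitate arrays lay at 5.89, 6.16 and 6.76 with a change of -0.58 ± 0.26 that did not pass (adjusted p = 0.136). Levels were 5.98, 6.76 and 7.25 under stearate, 5.75, 6.91 and 7.57 under oleate and 5.84, 6.71 and 7.44 under linoleate, with detection in 4 of 8, 4 of 8 and 1 of 7 arrays, and these groups overlapped the control. Under octanoate 3 of 8 cardiomyocyte markers tested also fell and 0 rose, with values given below. Their part in the Slc25a12 fall was not tested. Slc25a15, the ornithine carrier of the urea cycle, was detected in 3 to 6 arrays of each group and had its largest change under stearate (0.44 ± 0.18, adjusted p = 0.0901). That change was -0.01 with median scaling, beside a median of -0.49 for all genes. It was 0.66 with signal range as a covariate, where it passed (adjusted p = 0.00432), as did octanoate (0.43, adjusted p = 0.0251).

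Slc25a16, linked to CoA transport, was detected in 5 to 8 arrays of each group and passed in no comparison without a block. Its stearate arrays lay at 7.35, 7.97 and 8.17 and its palmitate arrays at 6.57, 7.36 and 7.94. The difference of 0.61 ± 0.21 had an adjusted p of 0.0793 without and 0.0192 with the replicate number as a block. With that block it was also lower than control under octanoate (-0.47, adjusted p = 0.0409) and palmitate (-0.53, adjusted p = 0.0312), for which the numbers do not pair the arrays by the criterion used. Under stearate its change against control was 0.16, and -0.44 with median scaling, neither past the threshold. The median of all genes under stearate with that scaling was -0.49.

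Of the members related to the uncoupling proteins, Slc25a27 (UCP4), known mainly from brain, was detected in 41 arrays and Slc25a30 (KMCP1), known from kidney, in 13. Slc25a27 did not pass in any comparison, with changes against control of 0.07 to 0.30, of which those under palmitate, stearate and oleate were -0.01, -0.45 and -0.04 with median scaling. The medians of all genes with that scaling were -0.13, -0.49 and -0.10 in the same order. In the fit of every detected probe, the level of Slc25a30 was 1.80-fold higher under stearate than under control (0.85 ± 0.24, adjusted p = 0.0137) and lower under oleate than under stearate (-0.72 ± 0.23, adjusted p = 0.0455). Its arrays lay at 6.32, 7.26 and 7.85 under stearate, against 6.10, 6.32 and 6.66 under control, with detection in 3 of 8 and 1 of 7. The other groups lay at 6.28, 6.74 and 7.40 under octanoate, 6.30, 6.52 and 7.69 under palmitate, 6.07, 6.33 and 7.01 under oleate and 6.25, 6.81 and 7.64 under linoleate, with detection in 1 to 3 arrays each. Of the 8 stearate arrays 6 lay above the highest control array. The stearate difference was 0.29 (adjusted p = 0.539) without stearate arrays 5 to 8 and 0.23 (adjusted p = 0.193) with median scaling, so neither setting kept the call. The difference between oleate and stearate was -0.16 (adjusted p = 0.787) without those arrays and -0.22 (adjusted p = 0.265) with median scaling, and its call was lost when any 1 of 9 single stearate or oleate arrays was left out. The second and brighter probe of Slc25a30 did not pass between oleate and stearate in the fit of every detected probe (-0.65 ± 0.23, adjusted p = 0.071). With median scaling the median change of all genes was -0.49 for stearate against control and 0.41 for oleate against stearate.

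The levels of both probes followed the signal range of the array. Over the 46 arrays Pearson's r with log2 signal range was -0.872 for Slc25a30 and -0.840 for Slc25a27, and Spearman's rho -0.843 and -0.871, each with a permutation p of 1e-05, the smallest that 100000 permutations can give. Adjusted over the 14 relations examined this was 4.67e-05. Without the 2 arrays farthest from the median signal range r was -0.842 and -0.819. Within single groups r lay between -0.986 and -0.673 for Slc25a30 and between -0.941 and -0.643 for Slc25a27. Stearate held the array of lowest signal range, and its median range was below that of control, as given above. With signal range as a covariate in the fit of every detected probe, the stearate difference of Slc25a30 was 0.34 ± 0.14 (adjusted p = 0.0861) and that between oleate and stearate was -0.41 ± 0.13 (adjusted p = 0.0419). For the called members r was 0.144 for Slc25a1 (permutation p = 0.342), 0.212 for Slc25a25 (0.159), 0.284 for Slc25a29 (0.0577) and 0.171 for Slc25a12 (0.255). Within single groups it lay between -0.658 and 0.583 for Slc25a1, -0.732 and 0.916 for Slc25a25, -0.459 and 0.510 for Slc25a29 and -0.368 and 0.321 for Slc25a12. Over deviations from the group means it was -0.114, 0.397, 0.156 and 0.175 in the same order. Slc25a3, Slc25a5, Slc25a11, Slc25a15 and Slc25a17 had positive values of 0.328 to 0.546, with adjusted permutation p-values of at most 0.0466.

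**Figure D3:**
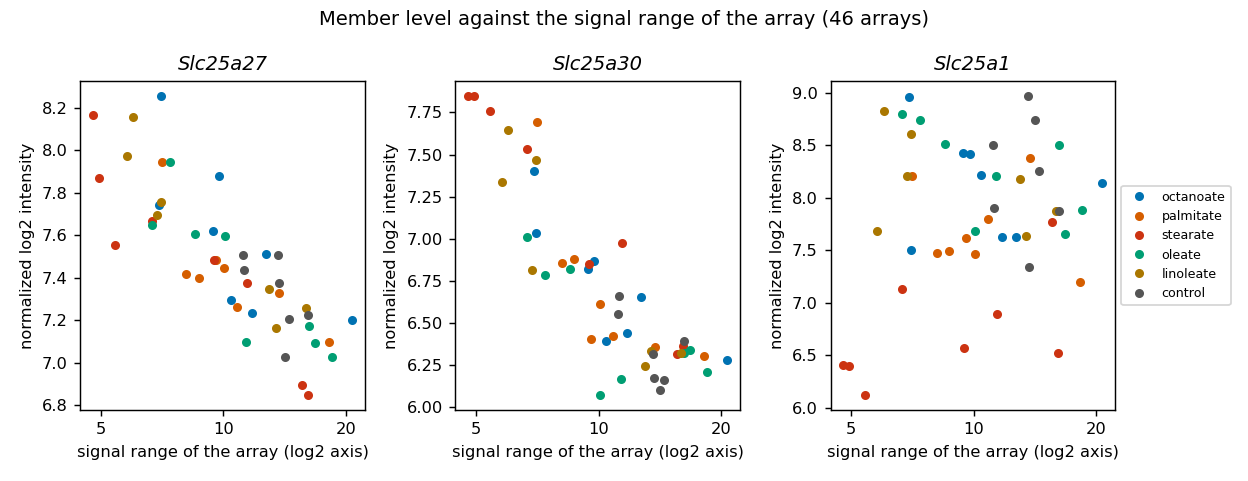
Normalized log2 intensity of Slc25a27, Slc25a30 and Slc25a1 against the signal range of each of the 46 arrays (95th percentile of signal over median) on a log2 axis and coloured by group. The first 2 probes decline as the range grows (r = -0.840 and -0.872), while over all arrays r is 0.144 for Slc25a1.

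Counted by fatty acid against control, 1 member rose and 1 fell of 12 under octanoate, where 24.7% of all genes tested were called (11.6% higher and 13.1% lower). Under palmitate 1 rose and 1 fell, beside 11.1% of all genes (5.3% higher and 5.76% lower). Under stearate 2 fell and 0 rose, beside 13.1% of all genes (4.19% higher and 8.91% lower). Under oleate 1 fell, beside 0.571% of all genes (0.515% higher and 0.0557% lower), and under linoleate 1 fell, beside 0.473% (0.334% higher and 0.139% lower). The median log2 change of the 12 members was -0.21 under octanoate, -0.21 under palmitate, 0.10 under stearate, -0.00 under oleate and -0.13 under linoleate, and that of all genes -0.02, -0.03, -0.06, -0.01 and -0.02. These comparisons share the control arrays. Median scaling moved the median change of all genes to -0.49 under stearate, -0.22 under linoleate and -0.13 under palmitate. With that scaling Slc25a1 under stearate was at -1.73, beside this all-gene median.

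**Figure D4:**
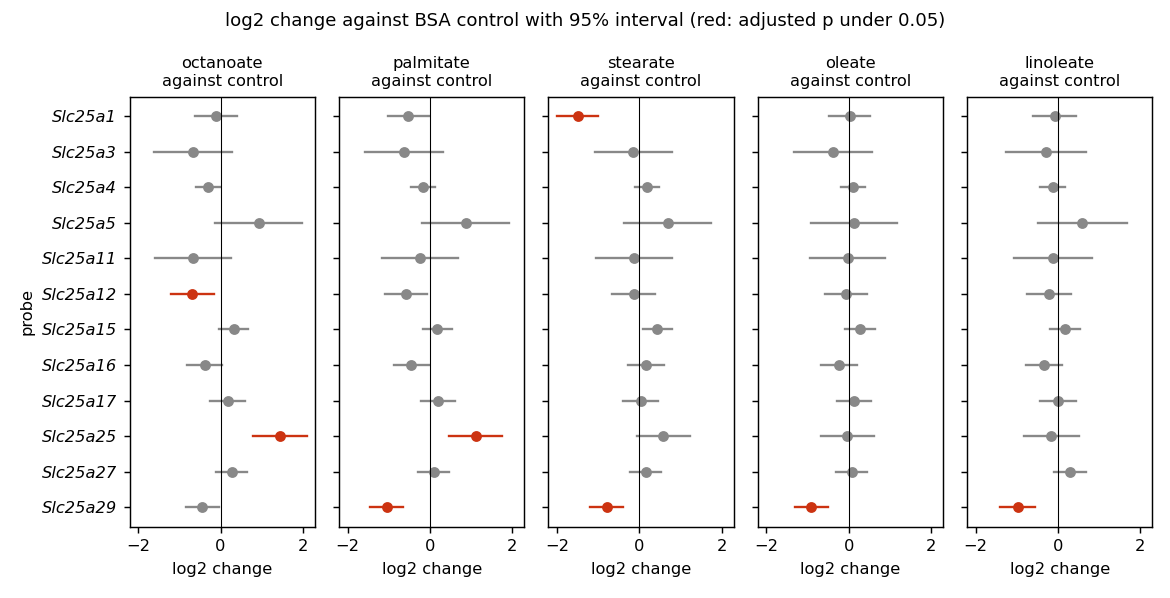
log2 change of the 12 tested members under each fatty acid against control, with 95% intervals, red where the adjusted p from limma was under 0.05. Slc25a29 passed under palmitate, stearate, oleate and linoleate, Slc25a25 under octanoate and palmitate, Slc25a1 under stearate and Slc25a12 under octanoate.

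At the same dose and time, fatty acids were also compared in 4 pairs that differ in chain length or in 1 double bond, with p-values adjusted over all genes within each pair. Longer saturated chains were compared as palmitate against octanoate and stearate against palmitate. Of 12 members 0 passed between palmitate and octanoate, where 2.23% of all genes did (1.41% higher and 0.821% lower) and 1 member had an unadjusted p under 0.05. Between stearate and palmitate 1 member passed, Slc25a1, lower under stearate, beside 4.18% of all genes (1.1% higher and 3.08% lower). With the replicate number as a block these counts became 1 (Slc25a29) and 3 (Slc25a1, Slc25a4 and Slc25a16). The calls over all genes rose as well with that block, to 408 and 815 of 7182.

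For the added double bond of oleate over stearate 1 member passed, Slc25a1, higher under oleate, beside 6.92% of all genes (4.65% higher and 2.27% lower). Linoleate, with 1 more double bond than oleate, did not differ from it by the limma test in any of 12 members, with 0 at an unadjusted p under 0.05, beside 0% of all genes called. For Slc25a1 that difference was -0.10 (95% interval -0.61 to 0.40) and for Slc25a29 -0.07 (-0.48 to 0.33), so changes beyond these bounds lay outside the interval. For Slc25a25 the difference between oleate and stearate was -0.62 (95% interval -1.24 to 0.01, adjusted p = 0.239). Since each pair shares a group with the next, these differences are not independent of each other.

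**Figure D5:**
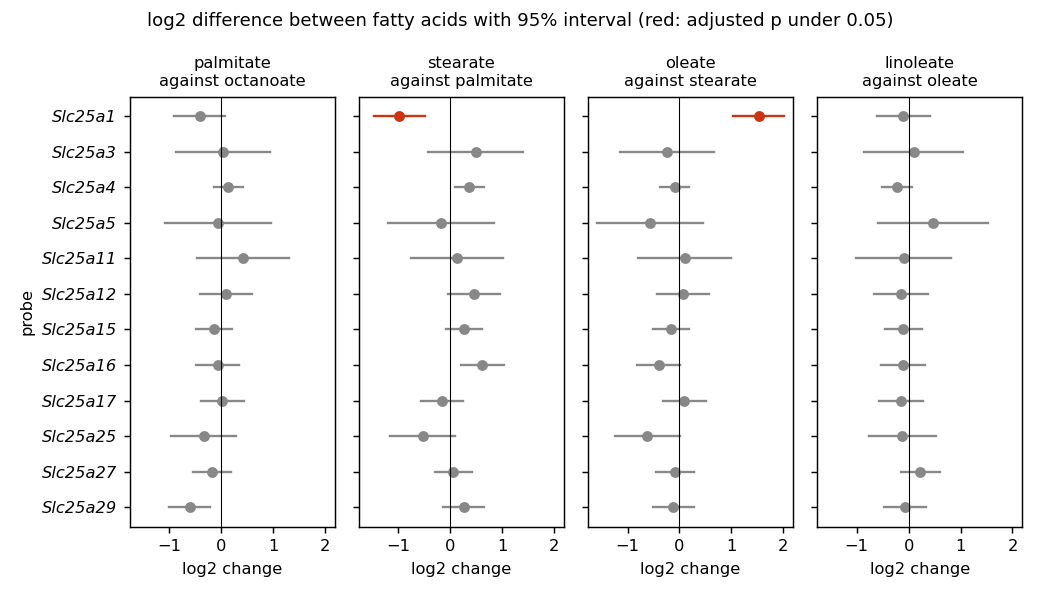
log2 difference of the 12 tested members in the 4 pairs of fatty acids, first named over second, with 95% intervals and red where the adjusted p from limma was under 0.05. In this fit, without the replicate number as a block, Slc25a1 alone passed, at -0.98 for stearate against palmitate and 1.52 for oleate against stearate.

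Lists of genes that work beside the carriers were counted in the same fit. Of 17 genes of the machinery that imports carriers into the inner membrane, 12 were tested. Timm22, the channel-forming subunit of the carrier translocase, fell under octanoate (-0.52 ± 0.19, adjusted p = 0.0354) and palmitate (-0.72 ± 0.19, adjusted p = 0.00861). Timm10b, a small subunit bound to that translocase, fell under octanoate (-0.65 ± 0.13, adjusted p = 1.86e-04). The list had 0 rises and 2 falls under octanoate, 0 and 1 under palmitate and 0 called under stearate, oleate or linoleate, where unadjusted p-values under 0.05 numbered 0, 1 and 0. Of all genes 24.7% were called under octanoate (13.1% lower) and 11.1% under palmitate (5.76% lower). The shares of these 12 genes called in either direction were not above those of all genes, while the shares called lower were slightly above. So few calls among 12 genes do not set the list apart. Its median change was 0.12 under octanoate and 0.02 under palmitate. With median scaling the calls under octanoate and palmitate were 0 and 0, with 2 under stearate. Of 7182 genes, that scaling called 308 higher and 349 lower under octanoate and 71 and 133 under palmitate. Under stearate it called 33 higher and 1829 lower, so the 2 stearate calls were not above the share of all genes.

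Of 21 other transporters of the mitochondrial membranes 13 were tested. Vdac1, the main pore of the outer membrane, fell under octanoate (-0.50 ± 0.19, adjusted p = 0.0474) and palmitate (-0.59 ± 0.19, adjusted p = 0.0354). Slc8b1, the mitochondrial sodium-calcium exchanger, fell under palmitate (-0.76 ± 0.21, adjusted p = 0.0129), while Letm1, an inner-membrane cation exchanger, rose under octanoate (0.62 ± 0.17, adjusted p = 0.00515) and was lower under palmitate than under octanoate (-0.60 ± 0.16, adjusted p = 0.0359). This list had 1 rise and 1 fall under octanoate and 2 falls under palmitate, beside the shares of all genes just given, and 1 call between palmitate and octanoate, beside 2.23%. It had 0 called under stearate, oleate or linoleate, with 2, 1 and 1 unadjusted p-values under 0.05. With median scaling the list had 0 calls under octanoate, under palmitate and between palmitate and octanoate, and 3 under stearate. Those 3 were not above the share of all genes called under stearate with that scaling, given above.

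Of 15 enzymes that work with the carriers in metabolite shuttles, 12 were tested, of which 1 rose and 5 fell under octanoate, beside 11.6% of all genes higher and 13.1% lower. Under palmitate 0 rose and 2 fell, beside 5.3% and 5.76%, under stearate 0 rose and 1 fell, beside 4.19% and 8.91%, and between stearate and palmitate 1 was higher, beside 1.1%. Got2, the mitochondrial aspartate aminotransferase of the malate-aspartate shuttle, fell under octanoate by 0.69 ± 0.20 on the log2 scale (adjusted p = 0.00916). Gpd1, the cytosolic glycerol-3-phosphate dehydrogenase, fell under octanoate by 0.90 ± 0.27 (adjusted p = 0.0118). The median change of the list was -0.50 under octanoate, beside -0.02 for all genes. Under palmitate Got2 fell (-0.67 ± 0.20, adjusted p = 0.0225), and under stearate Pc, pyruvate carboxylase (-0.67 ± 0.22, adjusted p = 0.0372). With median scaling the list had 1 call under octanoate, 0 under palmitate, 2 under stearate and 0 between stearate and palmitate. Counted in either direction, the 1 and the 2 calls were not above the shares of all genes called with that scaling, given above. The cardiomyocyte markers Tnnt2, Pln and Tnnc1 also fell under octanoate, by 0.43 ± 0.10, 1.62 ± 0.41 and 0.41 ± 0.13 on the log2 scale (adjusted p = 7.16e-04, 0.00307 and 0.0177). The summed raw intensity of the 9 cardiomyocyte markers, not normalized between arrays, was 82387 to 285406 under octanoate against 169846 to 275145 under control. The part of these markers in the falls of the enzymes was not tested.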

How the data were processed

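RNA was measured on single-dye Illumina rat BeadChips with probes of 50 bases. The deposited table holds the mean bead intensity of each probe and array, exported with BeadStudio 3 per the submitters' processing notes, and its detection p-value, per the file headers. The authors' second deposited table holds intensity values whose array medians were nearly equal; the method behind them is not given in the sources used here. Of 22517 probes, 17287 were matched to a rat gene name through a RefSeq gene table of build GRCr8, 5033 remained under their deposited symbol and 197 were unnamed. Promoter windows and their coordinates came from a RefSeq table of that build.

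In limma 3.58.1 (R 4.3.3) the background was corrected by normexp, which inferred the negative controls from the detection p-values (offset 16), before quantile normalization and log2 transformation. A filter retained the 7312 probes detected at p under 0.01 in 7 arrays or more, and each of 7182 genes was represented by its brightest probe. A linear model of the 6 groups on all 46 arrays, with trended empirical Bayes and two-sided tests, gave 9 comparisons and an F test, each adjusted by Benjamini-Hochberg over all genes, with a threshold of 0.05. The steps were tested on simulated data with independent noise for each gene and array. Such data held no correlation between same-numbered arrays and no differences in signal range, so the test did not cover these. Precision is limited by the number of arrays, with 95% intervals that reached a median of 0.461 to 0.493 above and below a log2 change.

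Members and lists were chosen with earlier results of these data known. Every member is named, those that passed a test with values in each group, and up to 3 members with the smallest p of each list, of which 1 is not reported here. Replicate numbers were taken to pair the arrays where the deviations of same-numbered arrays from their group means correlated above 0.1 in all 8 pairs. This held for palmitate with octanoate (correlations of 0.326 to 0.874), for stearate with palmitate (from 0.137 up to 0.753) and for oleate with stearate (from 0.178 up to 0.849). Alternatives were median scaling, no background correction, every detected probe, no detection filter, only the groups compared, a replicate block, signal range as a covariate, the second deposited table and left-out arrays.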

Additional observations from a re-analysis of the deposited data

Results flagged for a closer look

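Among 72 sets formed by 1 tested member in 1 group, 3 held an array whose gap to its nearest neighbour was too large a share of the range of the group by Dixon's criterion, which chance alone meets in about 1 of 20 sets. Slc25a27, the carrier known as UCP4, was at 7.95 on the log2 scale in palmitate array 1, against 7.10 to 7.48 in the other palmitate arrays. Slc25a29, the basic amino acid carrier, was at 7.06 in the same array, against 6.22 to 6.53 in the others, and this array was still below the lowest control array at 7.08. Slc25a4, the muscle adenine nucleotide carrier, was at 15.22 in stearate array 4, against 14.24 to 14.68 in the other stearate arrays.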

How the results depend on the processing

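No called change turned its sign under any setting run. Of 108 changes of the 12 members in 9 comparisons, 22 turned sign with median scaling, none of them called in either scaling, with 5 under stearate against control and 7 for oleate against stearate. In those comparisons the median change of all genes with that scaling was -0.49 and 0.41. The 10 counts of called members were 2 for octanoate, 2 for palmitate, 2 for stearate, 1 for oleate and 1 for linoleate against control, 0 for palmitate against octanoate, 1 for stearate against palmitate, 1 for oleate against stearate, 0 for linoleate against oleate and 4 for any fatty acid. The octanoate count was 1 without background correction, with median scaling, with only the groups compared, with the second deposited table and without the arrays numbered 4 and 7, and 4 with the replicate block. Without the detection filter the octanoate calls lost Slc25a12 and gained Slc25a14 and Slc25a24. Palmitate gave 1 with median scaling and 4 with the replicate block, although the numbers do not pair these arrays with control by the criterion used. Stearate gave 5 with signal range as a covariate, which added Slc25a5, Slc25a15 and Slc25a25, and 1 without stearate arrays 5 to 8, and any fatty acid gave 7 with that covariate. Oleate gave 0 with median scaling, without the arrays numbered 4 and 7 and without those numbered 4; linoleate gave 0 with median scaling, with only the groups compared and without the arrays numbered 4 and 7. Palmitate against octanoate gave 1 with the replicate block and without the arrays numbered 4 and 7 or those numbered 4. Stearate against palmitate gave 3 with the replicate block and 0 without stearate arrays 5 to 8, and oleate against stearate gave 2 when every detected probe was tested, which adds the probe of Slc25a30. The fits of both Slc25a30 probes under further settings, and those without stearate arrays 5 to 8 and without the arrays numbered 4 were chosen after seeing the data. Leaving out 1 array at a time gave 1 to 2 calls for octanoate, 2 for palmitate, 2 to 3 for stearate, 0 to 1 for oleate, 1 for linoleate, 3 to 5 for any fatty acid, 0 to 1 for palmitate against octanoate (1 without octanoate replicate 4 or 7), 1 to 2 for stearate against palmitate (2 without palmitate replicate 8 or stearate replicate 4), 1 for oleate against stearate and 0 for linoleate against oleate. Of 81 recomputed counts of the 3 pathway lists, 63 stayed within 1.5 times and 18 moved. Over all genes, calls against control were 1777 for octanoate, 795 for palmitate, 941 for stearate, 41 for oleate and 34 for linoleate, and 160, 300, 497 and 0 for the 4 pairs in the order above. Settings that moved them by over 1.5 times were median scaling (657, 204, 1862, 13 and 8 against control, then 37, 502 and 786 for the first 3 pairs), the replicate block (1640 for palmitate, 1502 for stearate, 72 for oleate, 66 for linoleate, then 408, 815 and 999, and 3279 against 2065 for any fatty acid), the signal range covariate (2785 for octanoate, 1542 for palmitate, 1426 for stearate, 55 for linoleate), only the groups compared (627 for stearate, 25 for oleate, 19 for linoleate, 192 for stearate against palmitate, 269 for oleate against stearate), no detection filter (511 for palmitate, 146 for stearate against palmitate), stearate arrays 5 to 8 left out (198 for stearate, 85 against palmitate, 180 for oleate against stearate), arrays numbered 4 and 7 left out (308 for palmitate, 21 for linoleate, 292 for palmitate against octanoate) and those numbered 4 left out (359 for palmitate against octanoate, 1024 for oleate against stearate, 2 for linoleate against oleate). The share of calls that were higher was 47.9% and 34.8% with median scaling for palmitate, 32% and 1.77% for stearate, 70.6% and 87.5% for linoleate, 63.1% and 51.4% for palmitate against octanoate, 26.3% and 0.996% for stearate against palmitate and 67.2% and 96.7% for oleate against stearate. Apart from the settings' own construction the causes were not tested. Levels of Slc25a1 under stearate, and of Slc25a12, Slc25a29 and Slc25a30, lay near background in several groups, which limits their folds.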

Other observations

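A further 27 probes carried other symbols in the file but matched family genes by RefSeq accession or current name, and 12 of them were tested. Slc25a38, the glycine carrier needed for haem synthesis, was at 6.86, 7.34 and 7.90 (lowest, median, highest log2 level) under linoleate and 6.69, 7.72 and 8.28 under palmitate, against 7.91, 8.27 and 8.52 under control. It fell by 0.85 ± 0.18 under linoleate (adjusted p = 0.00969), where no array overlapped the control, and by 0.55 ± 0.18 under palmitate (adjusted p = 0.0335). Slc25a35, a carrier whose substrate is not settled, fell by 0.83 ± 0.21 under octanoate (adjusted p = 0.00336) and by 0.83 ± 0.21 under palmitate (adjusted p = 0.00760). Its arrays lay at 6.29, 6.597 and 7.08 under octanoate and 6.26, 6.65 and 6.93 under palmitate, against 6.98, 7.35 and 8.04 under control, and all 8 palmitate arrays were below the lowest control array. Detection was reached in 2 of 8 octanoate and 1 of 8 palmitate arrays, against 7 of 7 control arrays, so both treated groups lay near background, which limits these changes.

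The second probe of Slc25a30, which is brighter than the member probe, rose under stearate by 1.05 ± 0.24 on the log2 scale (adjusted p = 0.00215), with 7 of 8 arrays above the highest control array, and had r = -0.840 with the signal range of the array. With every detected probe tested its change was 0.57 (adjusted p = 0.00882) with signal range as a covariate, 0.49 (adjusted p = 0.273) without stearate arrays 5 to 8 and 0.32 (adjusted p = 0.175) with median scaling. The median of all genes under stearate with that scaling was -0.49. Between oleate and stearate the second probe of Slc25a30 did not pass (-0.65 ± 0.23, adjusted p = 0.0708). With every detected probe tested, it fell short in 20 of 23 fits that left out 1 array. Slc25a13, the second aspartate-glutamate carrier, was detected in all 46 arrays, at 10.43 to 11.57 under octanoate against 10.21 to 11.62 under control, and passed in no comparison.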
